A study of Homo sapiens with 6 samples.

Results

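The hypoxia-response set comprises 10 genes chosen by symbol: HIF1A and 9 targets of the hypoxia-inducible factors (HIFs) outside glycolysis. The tables held 9 of these 10 genes among 19903, and all 9 passed the filter of a mean of at least 1 FPKM over the 6 libraries (FPKM, the fragment number of a gene per unit of transcript length and of library depth). CA9 was not analysed here. RNA sequencing had been made from 3 human cell lines that the labels call lung cancer lines, A549, H1299 and H2030, all at passage 5. Each line had 1 library with a malin vector, labelled NHLRC1-overexpression, and 1 with an empty vector, so the 3 lines are the only replicates of the vector. NHLRC1 encodes malin, an E3 ubiquitin ligase known for its part in glycogen metabolism. The sources used here give neither the vector's promoter nor the number of clones per line, and the labels name no change of oxygen supply.

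Cells sense oxygen through prolyl hydroxylases encoded by the EGLN genes. In oxygen these enzymes hydroxylate the HIF alpha subunits, which the VHL ubiquitin ligase complex then marks for destruction. When oxygen is short the alpha subunit is stable, pairs with ARNT and switches on genes for blood vessel growth, pH control, mitochondrial turnover and glycolysis. EGLN1 and EGLN3 are themselves HIF targets, which makes the pathway a feedback loop. The alpha subunit is regulated largely at the level of the protein, which was not measured here.

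NHLRC1, the gene carried by the vector, was at 6.82 FPKM with malin and 1.21 FPKM with empty vector in A549, at 119.2 and 2.85 FPKM in H1299, and at 3.69 and 0.18 FPKM in the H2030-labelled pair. The malin column of that last pair carries in its header the short name of HEK293T, an embryonic kidney line, while its labels name H2030. The pair is called H2030-labelled for that reason. Summed over 10 carcinoma epithelial markers it had 178.7 FPKM with malin and 248.2 FPKM with empty vector. The other 4 libraries had 1795 to 6505 FPKM. These sums rest largely on keratins, S100A6 and ANXA1 rather than on surface proteins. The 8 neuronal and renal markers associated with HEK293T summed to 143.3 and 105.7 FPKM in the H2030-labelled pair, against 34.31 to 92.77 FPKM in the other 4 libraries. In each list some markers went the other way. NEFM, LIN28B and NEFL were the largest parts of the neuronal and renal sums in the H2030-labelled pair. LIN28B was at 35.72 and 26.73 FPKM there, near the 30.17 and 32.14 FPKM of H1299. INA was at 6.12 and 9.3 FPKM in the H2030-labelled pair, against 41.95 and 43.68 FPKM in H1299. NEFH was at 0.26 and 0.44 FPKM, against 8.77 and 7.2 FPKM. EPCAM, of the carcinoma list, was highest in the H2030-labelled pair at 5.41 and 8.55 FPKM. Endothelial markers summed to at most 0.53 FPKM anywhere. The 6 lung lineage markers found in the tables summed to 12.64 and 12.44 FPKM in A549, 3.45 and 3.03 FPKM in H1299, and 6.57 and 5.8 FPKM in the H2030-labelled pair. FOXA2 made up most of the A549 sums, at 10.22 and 10.2 FPKM. NKX2-1 had another order, at 0 FPKM with either vector in A549, 0.6 and 0.77 FPKM in H1299, and 3.78 and 1.85 FPKM in the H2030-labelled pair. Depth, estimated from the spacing of low values, was 8300000 to 10700000 fragments per library.

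The letters ACGTG form the core of the sequence that HIFs are known to bind, and upstream stretches that hold them are shown for the members where they were found. Windows from 250 bases before to 50 bases after a gene start (RefSeq, GRCh38.p14) matched 6 of the 9 genes, with 7 windows. VEGFA, BNIP3L and NDRG1 were not matched. ACGTG on either strand stood in the windows of 3 genes, EGLN1, ANKRD37 and BNIP3, against 21.4% of all 35116 windows and 25.5% of the windows of genes in the fit. Capitals mark ACGTG, on the printed strand or as CACGT on the other strand. Where both overlap they read CACGTG and count as 2 matches. The EGLN1 stretch is on the minus strand at chr1:231422288-231422318, from 31 to 1 bases before the start, and holds 1 match. The ANKRD37 stretch is on the plus strand at chr4:185396661-185396720, from 180 to 121 bases before the start, and holds 3 matches. The BNIP3 stretch is on the minus strand at chr10:131982034-131982075, from 152 to 111 bases before the start, and holds 2 matches. The starts used here are those of RefSeq. The gene spans given below are from GENCODE, and the EGLN1 and ANKRD37 stretches lie inside those spans.
EGLN1: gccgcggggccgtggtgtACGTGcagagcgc
ANKRD37: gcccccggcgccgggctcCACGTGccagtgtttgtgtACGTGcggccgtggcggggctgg
BNIP3: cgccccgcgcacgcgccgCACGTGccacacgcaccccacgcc
The related core GCGTG stood in 36.5% of all windows, and in those of BNIP3 (4 matches), ADM (1) and HIF1A (1). The EGLN3 window held neither. A match describes the letters and does not show binding.

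None of the 9 genes passed the test of malin against empty vector over the 3 lines, while each of the 9 was called in at least 1 contrast between lines, as were 88.0% of all genes. Differences are on the log2(FPKM+1) scale, on which those of low genes come out smaller. The limma fit with cell line as a block called 0 of 9 members at an adjusted p of 0.05, where 0 of 12182 genes (0.0%) were called in all. NHLRC1, the gene carried by the vector, was not called either (limma unadjusted p = 0.00297, adjusted p = 0.927). Its mean log2 difference was 2.93 ± 1.77 (SD, n = 3 lines). The test thus missed that gene, and the absence of a call does not show that a member is unchanged. In the main fit an unadjusted p under 0.05 was reached by 1 member, ANKRD37, against 1.75% of all genes. ANKRD37 and EGLN1 were higher with malin in every line (2 of 9, against 11.0% of all genes), and VEGFA was lower in every line (1 of 9, against 11.3%). The labels do not say whether cultures were independent, so p-values measure only the spread between these libraries. In RNA from whole cultures, fewer cells expressing a gene and less RNA per cell cannot be told apart.

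**Figure D1:**
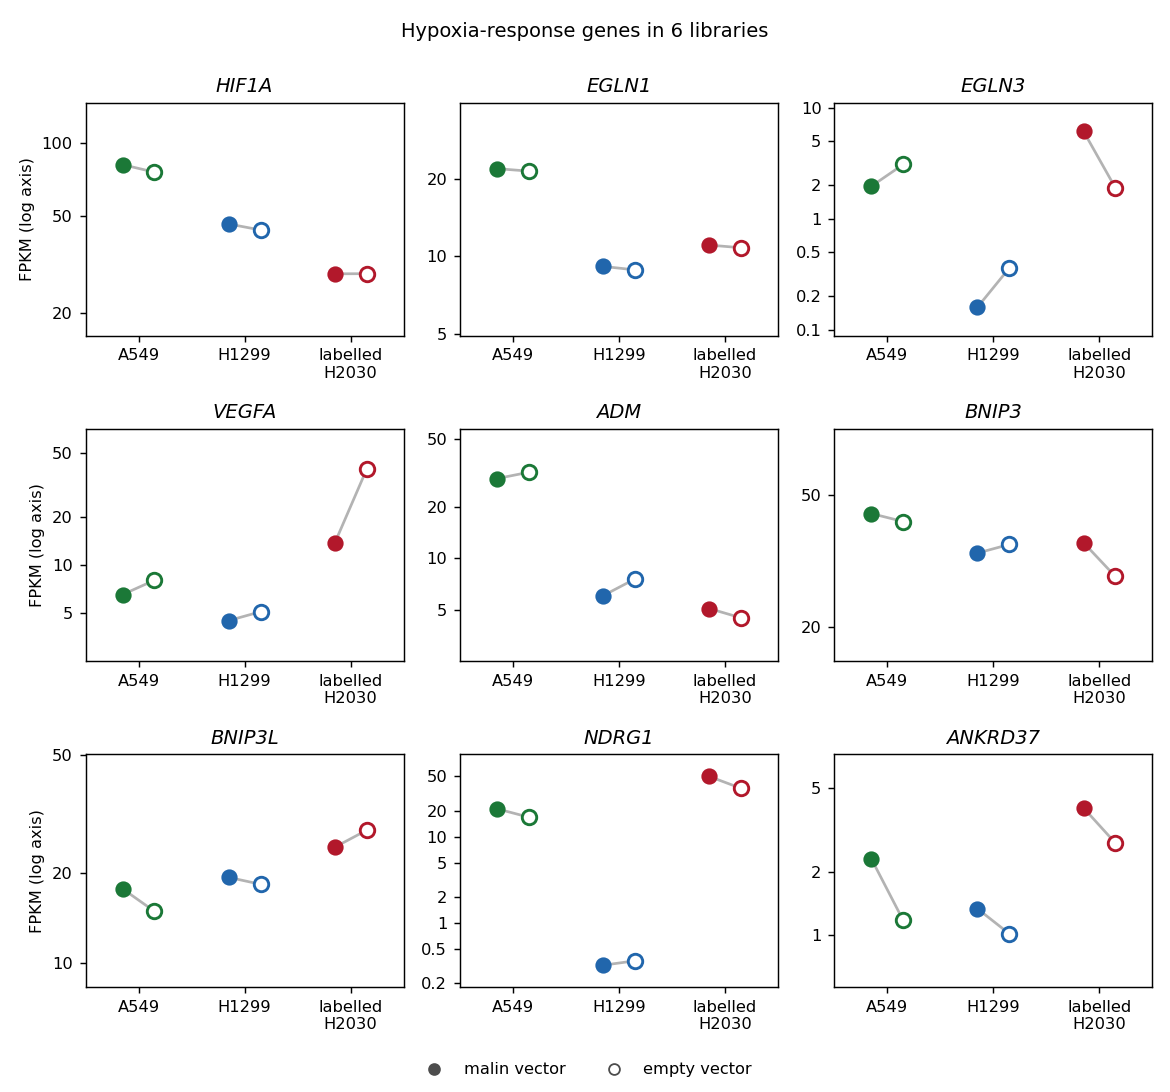
FPKM (log axis) of the 9 measured genes in each of the 6 libraries, by cell line, with malin as filled points on the left and empty vector as open points on the right of each pair. Most pairs of points nearly coincide within a line, and NDRG1 spans from 0.32 FPKM in H1299 to 50.1 FPKM in the H2030-labelled malin library.

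HIF1A, the oxygen-regulated alpha subunit (Entrez gene 3091, chromosome 14, 61695513 to 61748259 on the plus strand of hg38), had nearly the same level with either vector. It was at 81.72 FPKM with malin and 76.12 FPKM with empty vector in A549, at 46.5 and 43.91 FPKM in H1299, and at 28.94 and 28.98 FPKM in the H2030-labelled pair. The vectors differed little within a line, and the lines did not overlap. The mean log2 difference, malin minus empty vector, was 0.06 ± 0.05 (SD, n = 3 lines; limma adjusted p = 0.927). Between lines, A549 was higher than H1299 by 0.79 ± 0.09 (log2, limma SE; adjusted p = 0.000798) and higher than the H2030-labelled libraries by 1.42 ± 0.09 (limma adjusted p = 7.72e-05). H1299 was higher than those libraries by 0.62 ± 0.09 (limma adjusted p = 0.00167). An antisense gene, HIF1A-AS2, overlaps HIF1A and had the same order of lines, at 25.74 and 23.1 FPKM in A549, 15.9 and 15.45 FPKM in H1299, and 9.43 and 10.96 FPKM in the H2030-labelled libraries. The sources used here do not give whether strand was used in counting, so reads of a gene and of an overlapping gene on the other strand cannot be told apart.

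EGLN1 encodes the main prolyl hydroxylase that marks HIF alpha subunits in normal oxygen (Entrez gene 54583, chromosome 1, 231363751 to 231425044, minus strand). It was at 21.92 FPKM with malin and 21.44 FPKM with empty vector in A549, at 9.15 and 8.87 FPKM in H1299, and at 11.07 and 10.81 FPKM in the H2030-labelled pair. All 3 malin libraries stood slightly above their partners, by 0.03, 0.04 and 0.03 on the log2 scale. Each of these differences lay within counting error, as the 95% exact binomial interval of the FPKM ratio was 0.953 to 1.1 in A549, 0.924 to 1.15 in H1299 and 0.921 to 1.14 in the H2030-labelled libraries. The mean was 0.03 ± 0.0054 (SD, n = 3 lines; limma adjusted p = 0.962). A549 was higher than H1299 by 1.18 ± 0.11 (log2, limma SE; adjusted p = 0.000346) and higher than the H2030-labelled libraries by 0.93 ± 0.11 (limma adjusted p = 0.000654). H1299 and the H2030-labelled libraries differed by -0.25 ± 0.11, which did not pass (limma adjusted p = 0.0845) though it did with no vector term (0.0466), and was 0.012 with median-of-ratios scaling.

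EGLN3, a prolyl hydroxylase that hypoxia is known to induce strongly in many cells, had the widest spread of vector differences over the lines (Entrez gene 112399, chromosome 14, 33924231 to 34462774, minus strand). It was at 1.96 FPKM with malin and 3.08 FPKM with empty vector in A549, at 0.16 and 0.36 FPKM in H1299, and at 6.12 and 1.9 FPKM in the H2030-labelled pair. Malin was thus the lower library in A549 and H1299 and the higher one in the H2030-labelled pair. The FPKM ratio of malin to empty vector was 0.636 in A549 (95% exact binomial interval 0.444 to 0.912, from an estimated 53 and 83 fragments). In H1299 it was 0.444 (0.099 to 1.5), resting on an estimated 4 and 10 fragments. In the H2030-labelled libraries it was 3.22 (2.29 to 4.68, from 160 and 41 fragments). These intervals cover counting error only, and each line has 1 library per vector. The mean log2 difference was 0.20 ± 0.96 (SD, n = 3 lines; limma adjusted p = 0.942), and it was -0.35 without the H2030-labelled libraries. Between lines, A549 was higher than H1299 by 1.47 ± 0.42 (log2, limma SE; adjusted p = 0.0236) and H1299 was lower than the H2030-labelled libraries (-1.86 ± 0.42, limma adjusted p = 0.00912). The first call was lost with a pseudocount of 5, with no filter and with quantile normalization, and the second with quantile normalization. A549 and the H2030-labelled libraries overlapped (limma adjusted p = 0.44). SPTSSA, which overlaps the annotated span of EGLN3 on the same strand, was at 21.47 and 27.41 FPKM in A549, 14.89 and 14.69 FPKM in H1299, and 21.9 and 16.62 FPKM in the H2030-labelled libraries.

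Among the secreted products, VEGFA was lower with malin in every line, and most of its mean difference came from the H2030-labelled libraries. VEGFA encodes the vascular endothelial growth factor that draws new vessels (Entrez gene 7422, chromosome 6, 43770184 to 43786487, plus strand). It was at 6.53 FPKM with malin and 8.03 FPKM with empty vector in A549, at 4.49 and 5.1 FPKM in H1299, and at 13.71 and 39.54 FPKM in the H2030-labelled pair. The H2030-labelled empty-vector library was the highest of the 6, and the malin library of that pair still exceeded both other lines. The log2 differences were -0.26, -0.15 and -1.46 in that order of lines. Their mean was -0.63 ± 0.73 (SD, n = 3 lines; limma unadjusted p = 0.0548, adjusted p = 0.927), and the two-sided p of an exact permutation over the pairs was 0.25, the lowest that 3 pairs can reach. Without the H2030-labelled libraries the mean was -0.21.

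In that pair, markers of the ATF4 stress response, to which VEGFA is also known to respond, were lower with malin as well. Of 16 such markers, 15 were lower by at least 1.5-fold in the H2030-labelled libraries, against 7.33% of all genes. Their median level was 14.52 FPKM with malin and 56.62 FPKM with empty vector there, 28.98 and 26.5 FPKM in A549, and 6.08 and 5.715 FPKM in H1299. Their median log2 difference was -0.15 in A549, where 4 of 16 were higher with malin, -0.0044 in H1299 and -1.67 in the H2030-labelled pair. The medians of all genes were 0, 0.0050 and -0.03 in that order of lines. Of the 16 markers, 4 were lower in all 3 lines, against 11.3% of all genes. DDIT3, a stress-induced transcription factor, was at 6.74 FPKM with malin and 47.19 FPKM with empty vector in the H2030-labelled libraries. ATF4 itself, the marker that did not reach 1.5-fold there, was at 406.33 and 512.88 FPKM. The part of the stress markers in the VEGFA difference was not tested. The 16 were chosen with results of these libraries known, so their direction is not independent evidence.

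Between lines, VEGFA was lower in A549 than in the H2030-labelled libraries (log2 -1.57 ± 0.32, limma SE; adjusted p = 0.00619) and lower in H1299 than in those libraries (-2.08 ± 0.32, limma adjusted p = 0.00207). A549 and H1299 differed by 0.51 ± 0.32, which did not pass (limma adjusted p = 0.212) but did without the H2030-labelled libraries (limma adjusted p = 0.00349). The VEGFA levels of the 3 lines did not overlap.

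ADM encodes adrenomedullin, a peptide that widens blood vessels (Entrez gene 133, chromosome 11, 10304680 to 10307397, plus strand). It was at 29.35 FPKM with malin and 31.96 FPKM with empty vector in A549, at 6.05 and 7.58 FPKM in H1299, and at 5.09 and 4.49 FPKM in the H2030-labelled pair. The A549 libraries stood far above the other 4. The mean log2 difference between vectors was -0.08 ± 0.22 (SD, n = 3 lines; limma adjusted p = 0.928). A549 was higher than H1299 by 2.02 ± 0.15 (log2, limma SE; adjusted p = 0.000145) and higher than the H2030-labelled libraries by 2.45 ± 0.15 (limma adjusted p = 6.01e-05). H1299 was higher than the H2030-labelled libraries by 0.43 ± 0.15 (limma adjusted p = 0.0415), a call that was lost with a pseudocount of 5 (0.0606), with no filter (0.0645) and without A549 (0.111).

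BNIP3 and BNIP3L encode outer mitochondrial membrane proteins that recruit the autophagy machinery to mitochondria, and they varied least of the members between libraries. BNIP3 (Entrez gene 664, chromosome 10, 131966455 to 131982013, minus strand) was at 43.84 FPKM with malin and 41.49 FPKM with empty vector in A549, at 33.35 and 35.4 FPKM in H1299, and at 35.85 and 28.36 FPKM in the H2030-labelled pair. The highest and the lowest library differed by 1.55-fold, the narrowest range of the 9 members. Its widest vector difference was in the H2030-labelled libraries, where the FPKM ratio was 1.26 (95% exact binomial interval, for counting error, of 1.14 to 1.4). The mean log2 difference was 0.11 ± 0.21 (SD, n = 3 lines; limma adjusted p = 0.927). A549 was higher than the H2030-labelled libraries by 0.41 ± 0.13 (log2, limma SE; adjusted p = 0.0288), which became 0.0509 without H1299. The difference from H1299 did not pass (0.30 ± 0.13, limma adjusted p = 0.0783), but did with median-of-ratios scaling (0.0427) and without the H2030-labelled libraries (0.00424). H1299 minus labelled H2030 was 0.10 ± 0.13 (limma adjusted p = 0.495, or 0.0474 with median-of-ratios scaling). BNIP3 has many processed pseudogenes in the annotation, and the sources used here do not give how fragments shared with them were assigned.

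BNIP3L (Entrez gene 665, chromosome 8, 26382898 to 26505636, plus strand) was at 17.75 FPKM with malin and 14.91 FPKM with empty vector in A549, at 19.4 and 18.39 FPKM in H1299, and at 24.51 and 27.94 FPKM in the H2030-labelled pair. The H2030-labelled libraries were highest, and A549 and H1299 differed by -0.20 ± 0.13, which did not pass (limma adjusted p = 0.227). A549 minus labelled H2030 was -0.65 ± 0.13 (log2, limma SE; adjusted p = 0.006) and H1299 minus labelled H2030 was -0.45 ± 0.13 (limma adjusted p = 0.0257). With median-of-ratios scaling these were -0.28 (limma adjusted p = 0.0955) and -0.17 (0.277), so neither call held, and the second was also lost with quantile normalization (0.0588). PNMA2, which overlaps BNIP3L on the other strand, was at 14.01 and 12.03 FPKM in A549, 4.66 and 4.14 FPKM in H1299, and 21.51 and 21.96 FPKM in the H2030-labelled libraries. The mean vector difference was 0.04 ± 0.21 (SD, n = 3 lines; limma adjusted p = 0.962).

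NDRG1, a hypoxia- and stress-responsive gene linked to cell differentiation, had the widest range of any member (Entrez gene 10397, chromosome 8, 133237171 to 133302022, minus strand). It was at 21.04 FPKM with malin and 16.82 FPKM with empty vector in A549, at 0.32 and 0.36 FPKM in H1299, and at 50.1 and 36.45 FPKM in the H2030-labelled pair. The highest and lowest libraries differed by 156.6-fold, and the H1299 libraries were below 1 FPKM. A549 was higher than H1299 by 3.89 ± 0.16 (log2, limma SE; adjusted p = 2.02e-05). It was lower than the H2030-labelled libraries (-1.14 ± 0.16, limma adjusted p = 0.00116), as was H1299 (-5.03 ± 0.16, limma adjusted p = 1.05e-05). Between vectors A549 differed by 0.31, H1299 by -0.04 and the H2030-labelled libraries by 0.45, with a mean of 0.24 ± 0.25 (SD, n = 3 lines; limma adjusted p = 0.927).

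ANKRD37, an ankyrin-repeat gene known as a HIF target, had the lowest mean level of the 9 (Entrez gene 353322, chromosome 4, 185396021 to 185400628, plus strand). In the main fit it also had their smallest unadjusted p. It was at 2.3 FPKM with malin and 1.17 FPKM with empty vector in A549, at 1.33 and 1.01 FPKM in H1299, and at 4.03 and 2.74 FPKM in the H2030-labelled pair. Malin was the higher library of each pair, while the groups of 3 overlapped. The FPKM ratios were 1.97 (95% exact binomial interval 0.947 to 4.09), 1.32 (0.58 to 3.35) and 1.47 (0.86 to 2.51) in that order of lines, from an estimated 25 and 13, 14 and 11, and 42 and 24 fragments, so each interval held 1. The mean log2 difference was 0.42 ± 0.20 (SD, n = 3 lines; limma unadjusted p = 0.0179, adjusted p = 0.927; exact paired permutation p = 0.25). Between lines, A549 was lower than the H2030-labelled libraries (log2 -0.70 ± 0.16, limma SE; adjusted p = 0.00887), which became 0.0565 with median-of-ratios scaling and 0.411 with quantile normalization. H1299 was lower than those libraries (-1.003 ± 0.16, limma adjusted p = 0.00216, or 0.0526 with quantile normalization). UFSP2, which overlaps ANKRD37 on the other strand, was at 9.04 and 9.77 FPKM in A549, 8.09 and 7.06 FPKM in H1299, and 15.8 and 31.71 FPKM in the H2030-labelled libraries.

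**Figure D2:**
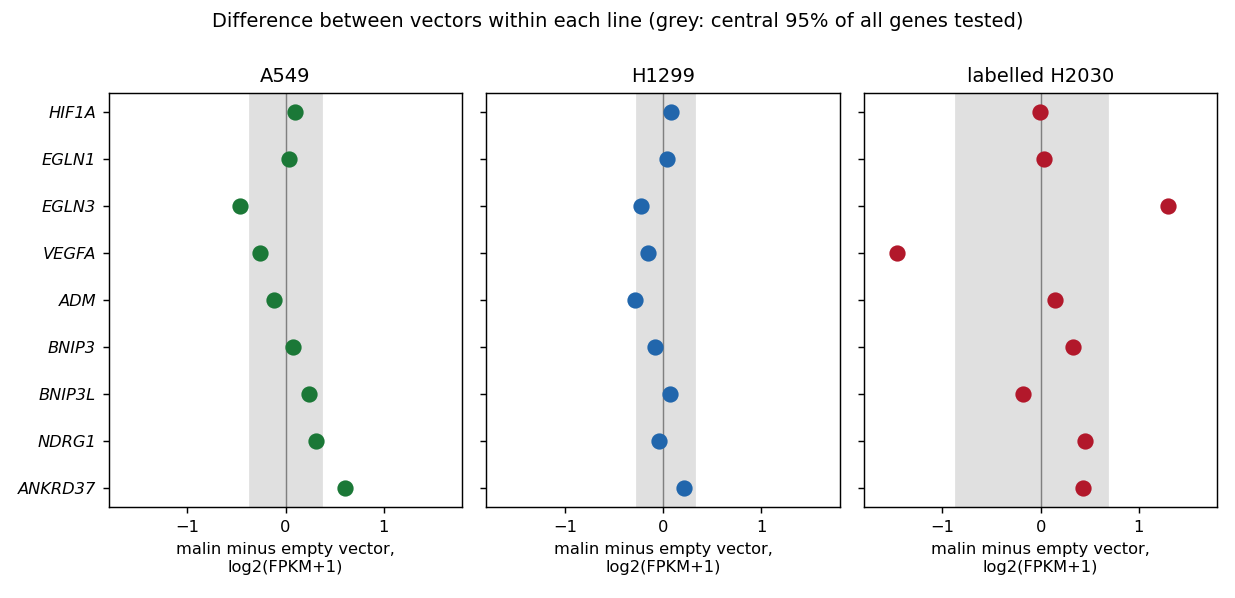
Log2 difference of FPKM+1, malin minus empty vector, for the 9 genes in each line, with 1 library per vector and line. The grey band is the central 95% of all 12182 genes of that line, outside which lie VEGFA at -1.46 and EGLN3 at 1.30 in the H2030-labelled libraries, ANKRD37 at 0.60 and EGLN3 at -0.46 in A549, and ADM at -0.28 in H1299.

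Within each line 1 library was set against 1 other, so no test was possible and folds are given. In A549, 1 of 9 members (ANKRD37) was higher by at least 1.5-fold in FPKM+1, against 0.55% of all genes, and 0 were lower, against 0.583%. There 0 members passed 2-fold, against 0.0493% of all genes higher and 0.0657% lower. In H1299, 0 members passed 1.5-fold, against 0.337% higher and 0.148% lower among all genes, and 0 passed 2-fold, against 0.0575% and 0.0246%. In the H2030-labelled libraries, 1 was higher by at least 2-fold (EGLN3), against 0.484%, and 1 was lower (VEGFA), against 1.6%. The median log2 difference of the 9 came to 0.08 in A549, -0.04 in H1299 and 0.15 in the H2030-labelled libraries, beside 0, 0.0050 and -0.03 for all genes.

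Between lines, a large share of all genes differed, and counts of members are read against that share. The limma fit called 61.6% of all genes for A549 minus H1299 at an adjusted p of 0.05. It called 5 of 9 members higher in A549 and 0 lower, against 27.2% and 34.5% of all genes. Of A549 and the H2030-labelled libraries, A549 was higher for 4 members and lower for 4 (67.0% of all genes called, 22.1% higher and 45.0% lower). H1299 was higher than those libraries for 2 and lower for 5 (64.7% of all genes called, 23.8% higher and 40.9% lower). With quantile normalization H1299 was higher for 2 and lower for 2, and with median-of-ratios scaling A549 was higher than the H2030-labelled libraries for 4 and lower for 2. HIF1A, ADM and NDRG1 differed in all 3 contrasts, against 26.7% of all genes. HIF1A, ADM and BNIP3 had their highest mean in A549 and their lowest in the H2030-labelled libraries, while VEGFA, ANKRD37, EGLN3 and NDRG1 had their highest in the H2030-labelled libraries and their lowest in H1299. The median of all genes lay at -0.09 for A549 minus H1299, -0.29 for A549 minus labelled H2030 and -0.22 for H1299 minus labelled H2030. Relative to those medians HIF1A differed by 0.88, 1.70 and 0.84. With median-of-ratios scaling 4309 genes were higher and 3620 lower for A549 minus labelled H2030, against 2689 and 5476 as deposited. For H1299 minus labelled H2030 they were 4070 and 3634, against 2896 and 4981.

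Of the other genes that control HIF, 14 of 15 listed passed the filter, and 0 were called between the vectors. EPAS1, which encodes the other main HIF alpha subunit, was at 65.05 FPKM with malin and 51.58 FPKM with empty vector in A549, at 0.55 and 0.41 FPKM in H1299, and at 5.38 and 5.02 FPKM in the H2030-labelled libraries. It was higher in A549 than in H1299 by 5.32 ± 0.13 (log2, limma SE; adjusted p = 5.76e-06). EPAS1 thus stayed below 1 FPKM in H1299, where HIF1A averaged 45.2 FPKM. P4HTM, a transmembrane prolyl hydroxylase, was at 5.98 and 6.55 FPKM in A549, 0.05 and 0 FPKM in H1299, and 7.44 and 9.47 FPKM in the H2030-labelled libraries. ARNT2, a partner subunit, was at 11.43 and 10.84 FPKM in A549, 0.06 and 0.1 FPKM in H1299, and 4.72 and 8.08 FPKM in the H2030-labelled libraries.

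EGLN2, the third prolyl hydroxylase, was at 54.54 FPKM with malin and 51.37 FPKM with empty vector in A549, 96.83 and 94.62 FPKM in H1299, and 23.44 and 21.57 FPKM in the H2030-labelled libraries. H1299 was the highest of the lines (A549 minus H1299 -0.84 ± 0.09, limma adjusted p = 0.000591; H1299 minus labelled H2030 2.04 ± 0.09, adjusted p = 2.88e-05). VHL, the substrate-binding part of the ligase, was at 14.04 to 16.25 FPKM in the 4 libraries of A549 and H1299, and at 42.32 FPKM with malin and 38.23 FPKM with empty vector in the H2030-labelled libraries. HIF1AN, which encodes the asparaginyl hydroxylase that blocks HIF activity, ranged from 12.53 to 14.15 FPKM over all 6 libraries and passed in no line contrast (limma adjusted p = 0.69, 0.554 and 0.867). Over the list, 4 of 14 were higher and 3 lower in A549 than in H1299, 3 higher and 6 lower in A549 than in the H2030-labelled libraries, and 2 higher and 10 lower in H1299 than in those libraries. The shares of all genes higher and lower were 27.2% and 34.5%, 22.1% and 45.0%, and 23.8% and 40.9%.

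**Figure D3:**
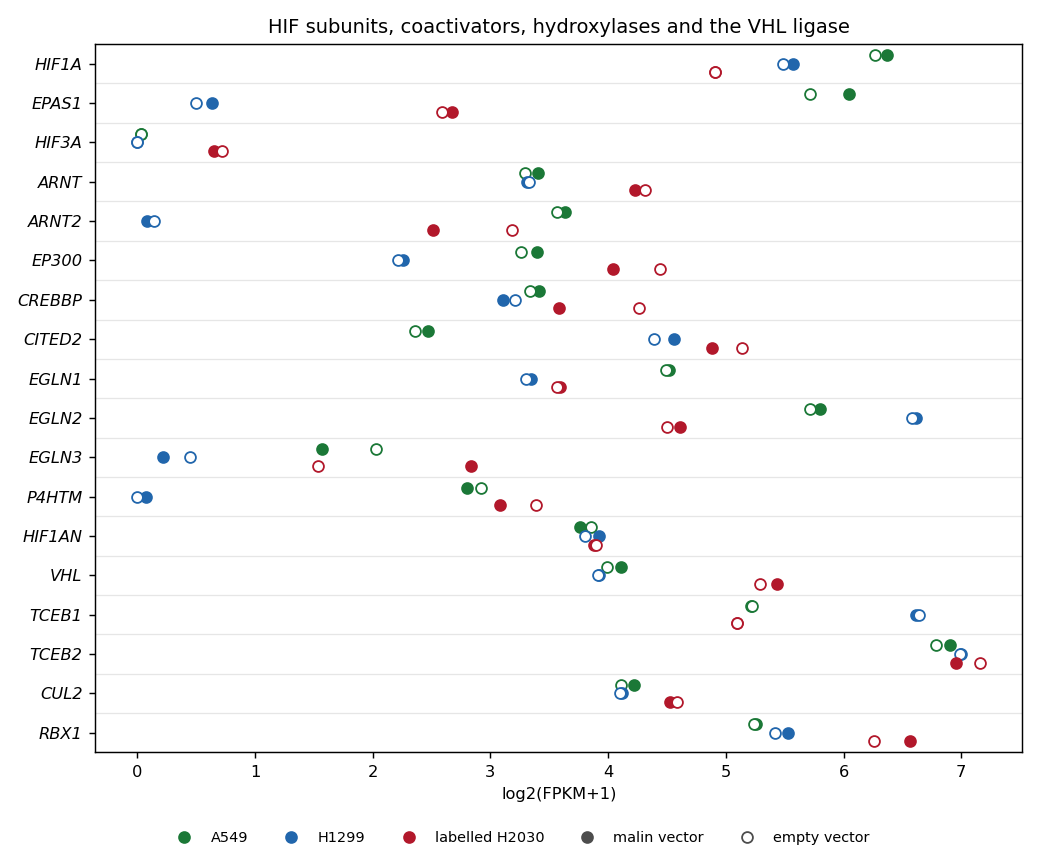
Log2(FPKM+1) of genes of the HIF pathway in the 6 libraries, coloured by line, with malin filled and empty vector open. EPAS1, P4HTM and ARNT2 are below 1 FPKM in both H1299 libraries, while HIF1AN lies between 12.53 and 14.15 FPKM throughout.

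Of the other non-glycolytic HIF targets, 0 of 41 tested were called between vectors, and their median log2 difference came to 0.0084 in A549, 0.0067 in H1299 and 0.0018 in the H2030-labelled libraries. In that last pair 6 were higher and 4 lower by at least 1.5-fold, against 4.28% and 7.33% of all genes. HMOX1, a haem-degrading enzyme, was at 146.65 FPKM with malin and 63.33 FPKM with empty vector there. CXCR4, a chemokine receptor, was at 38.13 and 20.76 FPKM, and HILPDA, a lipid-droplet protein, at 17.52 and 9.84 FPKM. STC2, a secreted glycoprotein, was at 17.44 and 74.96 FPKM, and DDIT4, an inhibitor of mTOR signalling, at 85.16 and 181.02 FPKM. STC2 and DDIT4 are also among the stress markers above.

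In A549, HILPDA was the other way round, at 17.76 FPKM with malin and 31.72 FPKM with empty vector. CA12, a membrane-bound carbonic anhydrase related to CA9, was at 97.63 and 102.77 FPKM in A549, at 0 and 0.02 FPKM in H1299, and at 3.6 and 3.23 FPKM in the H2030-labelled libraries. The line contrasts called 19 of 41 higher and 10 lower for A549 minus H1299, 15 and 15 for A549 minus labelled H2030, and 11 and 24 for H1299 minus labelled H2030. All genes were called higher and lower at 27.2% and 34.5%, 22.1% and 45.0%, and 23.8% and 40.9%.

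Of the 22 glycolytic HIF targets, 20 were higher with malin in the H2030-labelled libraries, 7 of them by at least 1.5-fold (4.28% of all genes). Their median log2 difference came to 0.05 in A549, 0.01 in H1299 and 0.32 in that pair, beside 0, 0.0050 and -0.03 for all genes. The share of all genes higher by any amount is not given here, and that pair sets 1 library against 1 other. LDHA, lactate dehydrogenase, was at 479.35 FPKM with malin and 253.35 FPKM with empty vector in that pair. Over the 3 lines, 0 of 22 were called.

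**Figure D4:**
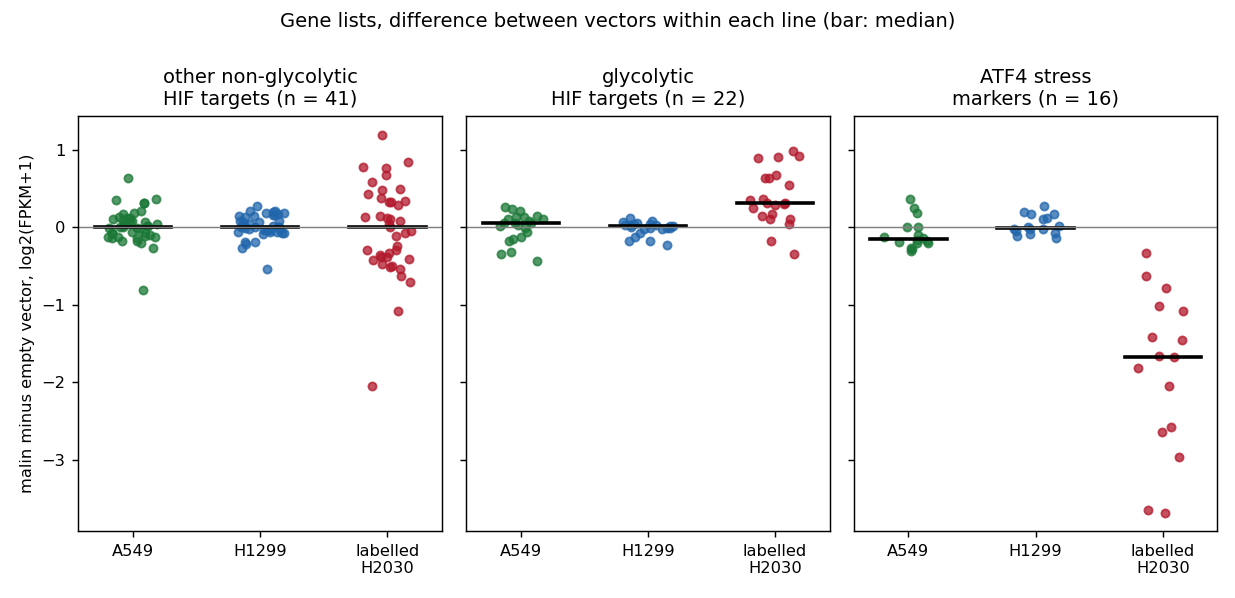
Log2 difference of FPKM+1, malin minus empty vector, in each line for the other non-glycolytic targets (41 genes), the glycolytic targets (22) and the ATF4 stress markers (16), with 1 point per gene and a bar at the median. In this order of lists the medians lie at 0.0084, 0.05 and -0.15 in A549, at 0.0067, 0.01 and -0.0044 in H1299, and at 0.0018, 0.32 and -1.67 in the H2030-labelled libraries.

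The genes whose 6 values lay nearest those of HIF1A, by root-mean-square distance of centred log2 values over 6 libraries, were PPAPDC1B (0.0503), ABR (0.0553), RHOG (0.0635), TACC1 (0.0772) and RAB1A (0.0796). Nearest to NDRG1 were SLFN11 (0.242), CADM1 (0.242), TLE4 (0.251), SMN2 (0.287) and TMEM98 (0.301). SMN2 has a near-identical copy, so its value is uncertain. Nearest to VEGFA were DUSP8 (0.136), CSDC2 (0.142), PCK2 (0.186), XBP1 (0.21) and RAMP2 (0.228). DUSP8, CSDC2 and RAMP2 were below 1 FPKM in A549 and H1299, where differences on this scale come out small. RAMP2 was at 0.4 FPKM with malin and 0.14 FPKM with empty vector in A549, the other way from VEGFA.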

How the data were processed

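RNA was sequenced in 6 libraries, 1 per cell line and vector. The authors deposited FPKM values, as their columns are called per the file headers. Cutadapt, FastQC, STAR, Cufflinks and the build hg38 are listed, with no version, per the submitters' processing notes. FPKM depends on the library total, so abundant genes can shift others. The genes and lists were chosen with earlier results of these data known. Groups followed the vector label, and pairs the cell line label, so libraries of 1 line are a pair.

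Values of log2(FPKM+1) entered a linear model in limma 3.58.1 under R 4.3.3 (eBayes with trend, cell line as block) on the 12182 protein-coding genes that averaged at least 1 FPKM. P-values were adjusted by Benjamini-Hochberg with a threshold of 0.05. There were 2 residual and a median of 3.9 prior degrees of freedom. Line contrasts came from the same fit, with 2 libraries per line that differ in vector. Within a line there was no test. Named genes were all members, NHLRC1, genes that control HIF, and up to 6 per direction and contrast from each other list. The 5 genes nearest to HIF1A and to the 2 members with the widest range were also named. That range was taken on the log2(FPKM+1) scale, which gave NDRG1 and VEGFA, whereas by FPKM fold EGLN3 (38.25) exceeded VEGFA (8.806). Not every gene so selected is reported here. The pseudocount was also set to 0.1 and 5, and the filter to none and to a mean of 5 FPKM. Further alternatives were all gene classes, median-of-ratios scaling, quantile normalization, no trend, no block, no vector term and leaving out each line. Leaving out a line in the line contrasts was added after seeing the data.

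Fragments were estimated from the spacing of low FPKM values, 78.6% to 80.9% of which lay within 0.2 of a whole number, with 100 bases taken off transcript length. The step was chosen from the same values. Intervals are 95% exact binomial and cover counting error only. Positions are from GENCODE on hg38, and windows from RefSeq. Scripts ran in Python 3.11.15 (pandas 2.3.3, numpy 2.4.6, scipy 1.17.1, matplotlib 3.10.9).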

Additional observations from a re-analysis of the deposited data

Results flagged for a closer look

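EGLN3 pointed in opposite directions between lines. Its FPKM ratio of malin to empty vector was 0.636 in A549 and 0.444 in H1299, but 3.22 in the H2030-labelled libraries. The difference between lines was not tested, because each line has 1 library per vector. The H1299 value rests on an estimated 4 and 10 fragments, and its interval holds 1.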

How the results depend on the processing

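No member was called between vectors in any of 12 alternatives, where the smallest adjusted p of a member was 0.885 (limma). Unadjusted limma p-values moved across 0.05. ANKRD37 rose to 0.111 without A549. VEGFA fell to 0.0459 with median-of-ratios scaling, 0.0432 without A549 and 0.0307 without H1299. NDRG1 fell to 0.0371 without H1299, and EGLN3 to 0.0183 without the H2030-labelled libraries. The number of genes called over all lines was 0, and 0 to 1 when a line was left out, the 1 coming without the H2030-labelled libraries. Cell lines pair the libraries. Without the replicate block, 0 genes were called and 0 had an unadjusted p under 0.05. The mean malin difference turned for ADM without H1299, for EGLN3 and BNIP3 without the H2030-labelled libraries and for BNIP3L without A549. Over the 3 fits that leave out a line it ran from -0.20 to 0.0153 for ADM, -0.35 to 0.53 for EGLN3, -0.0030 to 0.20 for BNIP3 and -0.054 to 0.16 for BNIP3L. Between lines, EGLN3 turned with quantile normalization (A549 minus labelled H2030, 0.10) and EGLN1 with median-of-ratios scaling (H1299 minus labelled H2030, 0.012). Neither had been called. The cause was not tested. Genes past 2-fold numbered 14 in A549 (152 with a pseudocount of 0.1 and 4 with 5), 10 in H1299 (119 and 3) and 254 in the H2030-labelled libraries (544 and 65), as a small pseudocount raises the folds of low genes. Of 20 calls of members between lines, 12 held in every alternative and 8 were lost in at least 1. A mean FPKM of at least 5 leaves ANKRD37 and EGLN3 out of the fit. Each line had 1 library per vector, and ANKRD37 and EGLN3 rest on 4 to 160 estimated fragments per library.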

Other observations

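Of 37 relatives and receptors of the members listed, 34 were in the tables and 22 passed the filter, and 0 were called between vectors (limma). Between lines, 7 were higher and 7 lower in A549 than in H1299, 6 and 13 in A549 than in the H2030-labelled libraries, and 4 and 15 in H1299 than in those libraries (limma, background shares as for the members). NRP1, a co-receptor for vascular growth factors, was at 79.87 FPKM with malin and 72.5 FPKM with empty vector in A549, at 1.98 and 1.92 FPKM in H1299, and at 8.14 and 9.2 FPKM in the H2030-labelled libraries. FLT1 and FLT4, receptors for such factors, were instead highest in the H2030-labelled libraries, FLT1 at 4.87 and 7.86 FPKM and FLT4 at 12.92 and 12.82 FPKM. KDR, the main signalling receptor of VEGFA, was at or below 0.4 FPKM in all 6 libraries.

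BNIP1, a SNARE protein of the endoplasmic reticulum, was lower with malin in every line, though not called (limma adjusted p = 0.927). It was at 7.95 against 10.38 FPKM in A549, 11.77 against 13.83 FPKM in H1299, and 14.39 against 21.36 FPKM in the H2030-labelled libraries. Of the 22 tested, 3 were lower and 3 higher with malin in all 3 lines, against 11.3% and 11.0% of all genes. FUNDC1, a mitophagy receptor, was at 37.71 FPKM with malin and 26.27 FPKM with empty vector in the H2030-labelled libraries, and at 20.17 to 22.32 FPKM in the other 4. NDRG2, a relative of NDRG1, was also highest in the H2030-labelled libraries, at 20.26 and 16.8 FPKM, against 0.96 and 1.8 FPKM in A549.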
